A study of Mus musculus with 4 samples.

Results

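Galectins are lectins that bind β-galactosides through a conserved carbohydrate-recognition domain. They are made in the cytosol, leave the cell without a signal peptide and cross-link glycoproteins at the surface, and several also mark damaged vesicles from inside the cell. Galectin-3 was first described as the macrophage surface antigen Mac-2. The genes described here are Lgals1, Lgals3, Lgals4, Lgals8 and Lgals9, which encode galectins, and Lgals3bp, which encodes a secreted glycoprotein that galectin-3 binds. They comprise every probe whose only gene symbol is 1 of these 6 names, which gives 11 of 45281 probes on the array. The set was chosen by the readings of Lgals3, which were higher on both arrays that have no replicate, so the differences of its members from the controls are given as descriptions with no test.

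The RNA came from spleen cells of BXD2 mice, an inbred recombinant line prone to lupus-like autoimmunity, sorted as marginal zone macrophages by SIGN-R1 on the surface, low CD11b and no I-Ab or product of Adgre1. The 4 single-colour bead arrays were 2 from BXD2 mice given PBS (control 1 and control 2), 1 from BXD2-Ifnar-/- mice given PBS, which lack the type I interferon receptor, and 1 from BXD2 animals injected intravenously with 25 µg of sLTβR-Fc each, a soluble decoy of the lymphotoxin β receptor. Each array holds cells of 2 mice aged 2.5 months and killed 10 hours after the injection. No array of mice given a control Fc protein was analysed here, so blockade of lymphotoxin and any other action of the injected protein cannot be told apart, and the Ifnar-/- and sLTβR-Fc arrays were set against the same controls.

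All values are normalised intensities in arbitrary units, in which a reading close to 111 is the lowest counted as above background. Background remains in them, so differences of dim probes are understated. They were tested over 24175 probes above background on at least 1 array, where 44 probes (0.182%) stood 2-fold or more apart between the controls. Of the genes of the sort, Cd209b, which encodes SIGN-R1, read between 127 and 152, and Adgre1, whose product the sort avoided, gave 629 and 306 in the controls, 1017 in Ifnar-/- cells and 631 after sLTβR-Fc. Of 6 B cell genes tested, the B cell receptor gene Cd79b read between 6305 and 13760. Blk read between 2143 and 4958 and Cr2 between 456 and 1554. Ms4a1 read between 185 and 269.99, Fcer2a between 213 and 298, and Pax5 was above background on 1 array. Fewer cells of a type and less RNA per cell cannot be told apart in such sums over many cells.

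Of the 11 galectin probes, 9 were above background on all 4 arrays, 1 on 1 array and 1 on none, and each of the 6 genes had at least 1 probe above background throughout. Among the 6, Lgals3 had the highest readings relative to the controls. Its single probe read 1724 and 1679.9 in the controls, 4843 in Ifnar-/- cells and 3775 after sLTβR-Fc. Both unreplicated arrays lay above both controls, and the controls differed by 0.04 on the log2 scale, less than 77.2% of the probes tested did.

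The Lgals3 reading was 2.85-fold the control mean in Ifnar-/- cells (log2 1.51 ± 0.20, SE) and 2.22-fold after sLTβR-Fc (log2 1.15 ± 0.20). The SE comes from a limma fit over all probes, rests on the single pair of controls and holds no spread of the unreplicated arrays. Of all probes tested, 0.132% had a higher log2 difference in Ifnar-/- cells and 0.707% after sLTβR-Fc. Set against each other, the Ifnar-/- array read 1.28-fold the sLTβR-Fc array, a log2 difference of 0.36 between 1 array and 1 array. In the values as deposited, before any scaling between arrays, the readings were 2145 and 1860.1 in the controls, 4493 in Ifnar-/- cells and 2875 after sLTβR-Fc. These are 2.25-fold and 1.44-fold the control mean, so the direction held without scaling and the 2-fold size after sLTβR-Fc did not.

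**Figure D1:**
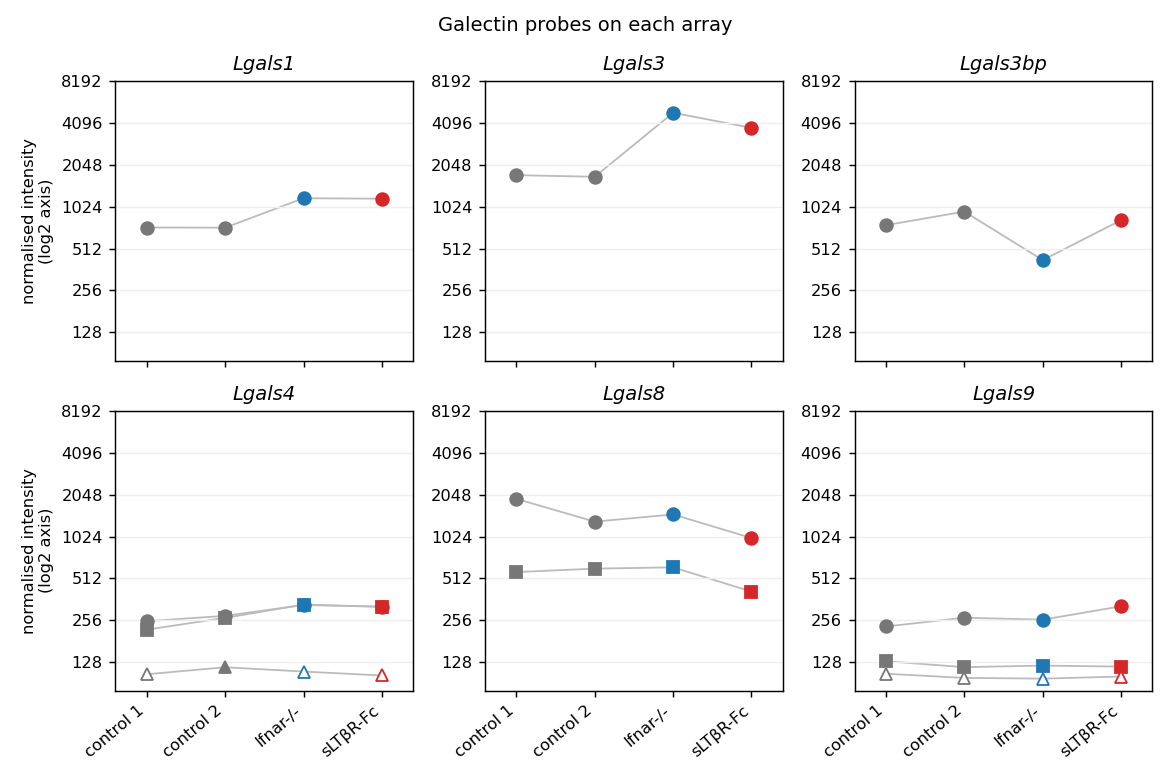
Normalised intensity (log2 axis) of each galectin probe on the 4 arrays, grey for the controls, blue for Ifnar-/- and red for sLTβR-Fc. Circles, squares and triangles are the brightest, next and dimmest probe of a gene, open symbols are readings not above background, and grey lines only join the readings of a probe. Lgals3 read 4843 and 3775 on the unreplicated arrays against 1724 and 1679.9 in the controls.

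By the rule of size used here, a log2 difference of at least 1 from each control in the same direction, 1 of the 10 galectin probes tested was higher in Ifnar-/- cells, against 0.472% of all probes, and 0 were lower, against 0.749%. After sLTβR-Fc, the same count was 1 higher, against 0.749% of all probes, and 0 lower, against 0.389%. That probe is Lgals3 in both comparisons, and it fixed the choice of the set. The numbers of probes of any gene behind these shares were 114 and 181 in Ifnar-/- cells and 181 and 94 after sLTβR-Fc. In the values as deposited they were 47 and 401, and 38 and 879. Against control 1 alone they were 218 and 358 in Ifnar-/- cells and 237 and 230 after sLTβR-Fc, and against control 2 alone 153 and 216, and 263 and 147.

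Lgals1 encodes galectin-1, a small galectin that forms dimers and is known for curbing T cell responses. It read 725 and 723 in the controls, 1177 in Ifnar-/- cells and 1168 after sLTβR-Fc. Both unreplicated arrays lay above both controls and differed from each other by 0.01 on the log2 scale. The difference from the control mean was 0.70 ± 0.22 (SE) on the log2 scale for Ifnar-/- and 0.69 ± 0.22 for sLTβR-Fc. In Ifnar-/- cells, it was positive under all 7 alternative settings (0.38 to 0.73), which are the values as deposited, scaling to the same median or 75th percentile, normexp background correction, a floor at the background limit and leaving out either control. After sLTβR-Fc, it was positive under 6 of the 7 and -0.019 in the values as deposited, where that array lay between the controls. In those unscaled values the median of all probes tested was -0.14 in Ifnar-/- cells and -0.18 after sLTβR-Fc. The floor and leaving out a control could not change the sign where a bright probe lay outside both controls.

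Lgals3bp, the gene of the galectin-3-binding glycoprotein, stood apart from Lgals3. It read 754 and 944 in the controls, 423 in Ifnar-/- cells and 819 after sLTβR-Fc. The Ifnar-/- array lay below both controls at 50.1% of their mean, a log2 difference of -0.996 ± 0.22 (SE), while the sLTβR-Fc array lay between them. The difference in Ifnar-/- cells was -0.83 from control 1 and -1.16 from control 2, so it did not reach a log2 difference of 1 from control 1, although it did in the values as deposited. It was negative under all 7 alternatives, from -1.31 to -0.83. After sLTβR-Fc, it was -0.043 ± 0.22 (SE), 0.12 against control 1 alone and -0.75 in the values as deposited. The controls themselves were 0.32 apart on the log2 scale, a gap that 6.28% of the probes tested exceeded.

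Lgals3bp and Lgals9 are known as interferon-inducible genes. Of 20 listed interferon-stimulated genes, 17 were tested. In Ifnar-/- cells, 9 of them passed limma's Benjamini-Hochberg adjusted threshold as lower and 0 as higher, with a median log2 difference of -0.40. Over all 14741 genes tested, 5.99% passed as lower and 5.81% as higher, and the median was 0.016. The median gap between controls over these genes was 0.24, control 2 being higher, as it was for Lgals3bp. The antiviral gene Ifit3 read 346 and 567 in the controls, 141 in Ifnar-/- cells and 348 after sLTβR-Fc. Usp18, which removes the ubiquitin-like ISG15 from proteins, read 352 and 598, then 126 and 356, while its further probe lay at -0.021 in Ifnar-/- cells. Cmpk2, a mitochondrial nucleotide kinase, read 681 and 617, then 196 and 425, and these 3 were the listed genes past the rule of size. After sLTβR-Fc, 3 of the 17 passed as lower and 0 as higher (5.88% and 7.73% of all genes), at a median of -0.12.

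Lgals9 encodes galectin-9, a tandem-repeat galectin and ligand of the receptor TIM-3. Its brightest probe read 231 and 267 in the controls, 259 in Ifnar-/- cells and 323 after sLTβR-Fc. The Ifnar-/- array lay between the controls, with a log2 difference of 0.058 ± 0.16 (SE) from their mean, which was -0.21 in the values as deposited. The sLTβR-Fc array lay above both at 0.38 ± 0.16, but this was -0.19 in the values as deposited and -0.11 after scaling to the same median. The next probe was barely above background, at 130.1 and 118 in the controls, 121 in Ifnar-/- cells and 119 after sLTβR-Fc. The last probe was above background on no array.

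The promoters were searched because the Ifnar-/- array bears on interferon-responsive sequence. RefSeq promoters of build GRCm38.p6, running from 250 bases before the annotated start to 50 after it, matched 5 of the 6 genes, all but Lgals1. The core of the interferon-stimulated response element, GAAA and again GAAA with any 2 bases between them, on either strand, was in 3.44% of 32851 promoters and in that of Lgals9 alone among the 5. It occurred there at bases -55 to -46 and again at bases 16 to 25 of the transcribed part. The γ-activated site core TTCNNNGAA (8.30% of promoters) and the AP-1 site TGANTCA (7.81%) were in none of the 5. The GC box GGGCGG (35.7%) was in the promoters of Lgals3 and Lgals4. The 250 bases before the start are shown for Lgals3, which set the choice, and for the genes known to respond to interferon, at chr14:47373610-47373859 on the plus strand, and at chr11:118401960-118402209 and chr11:78984925-78985174 on the minus strand. Letters in capitals mark a match to any of these motifs.
Lgals3: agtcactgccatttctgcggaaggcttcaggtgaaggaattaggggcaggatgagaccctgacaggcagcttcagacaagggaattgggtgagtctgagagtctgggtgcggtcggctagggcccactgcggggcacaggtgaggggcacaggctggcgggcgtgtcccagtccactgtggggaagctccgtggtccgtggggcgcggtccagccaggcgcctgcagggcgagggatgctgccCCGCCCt
Lgals3bp: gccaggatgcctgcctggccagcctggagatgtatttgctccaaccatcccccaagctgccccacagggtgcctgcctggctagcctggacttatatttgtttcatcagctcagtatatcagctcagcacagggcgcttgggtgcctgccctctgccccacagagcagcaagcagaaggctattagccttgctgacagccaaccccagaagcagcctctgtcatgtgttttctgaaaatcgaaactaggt
Lgals9: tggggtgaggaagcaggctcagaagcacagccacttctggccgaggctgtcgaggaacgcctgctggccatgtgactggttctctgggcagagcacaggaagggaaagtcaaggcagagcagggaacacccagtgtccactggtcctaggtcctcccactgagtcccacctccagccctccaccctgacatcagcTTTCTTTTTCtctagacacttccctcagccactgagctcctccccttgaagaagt
The capitals in Lgals3 are a GC box next to the start, and those in Lgals9 are the response element core, read on the opposite strand. Lgals3bp has no exact match to any of these motifs in this window, and Lgals9 has 2 of the response element core in the searched window. The search allowed no mismatch, and whether any of these letters bear on the readings was not tested.

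Lgals8 encodes galectin-8, a tandem-repeat galectin that detects glycans exposed on damaged vesicles. Its brightest probe read 1911 and 1312 in the controls, 1477 in Ifnar-/- cells and 999.9 after sLTβR-Fc. The next probe read 569 and 602 in the controls, 615 in Ifnar-/- cells and 412 after sLTβR-Fc. On both probes the sLTβR-Fc array was the lowest of the 4, at 63.2% and 70.4% of the control mean.

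The log2 differences of Lgals8 after sLTβR-Fc were -0.66 ± 0.23 (SE) for the brightest probe and -0.51 ± 0.21 for the next. They stayed negative under all 7 alternatives, ranging from -1.38 to -0.39 and from -1.15 to -0.47. The gap between the controls was 0.54 on the brightest probe, larger than on all but 1.33% of the probes tested, and 0.082 on the next. In Ifnar-/- cells, the probes lay at -0.10 ± 0.23 and 0.072 ± 0.21, and changed sign against control 2 alone for the former and as deposited and at the same median or 75th percentile for the latter. The direct difference, Ifnar-/- minus sLTβR-Fc, was 0.56 and 0.58. A further probe that names Lgals8 together with another gene was left out.

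**Figure D2:**
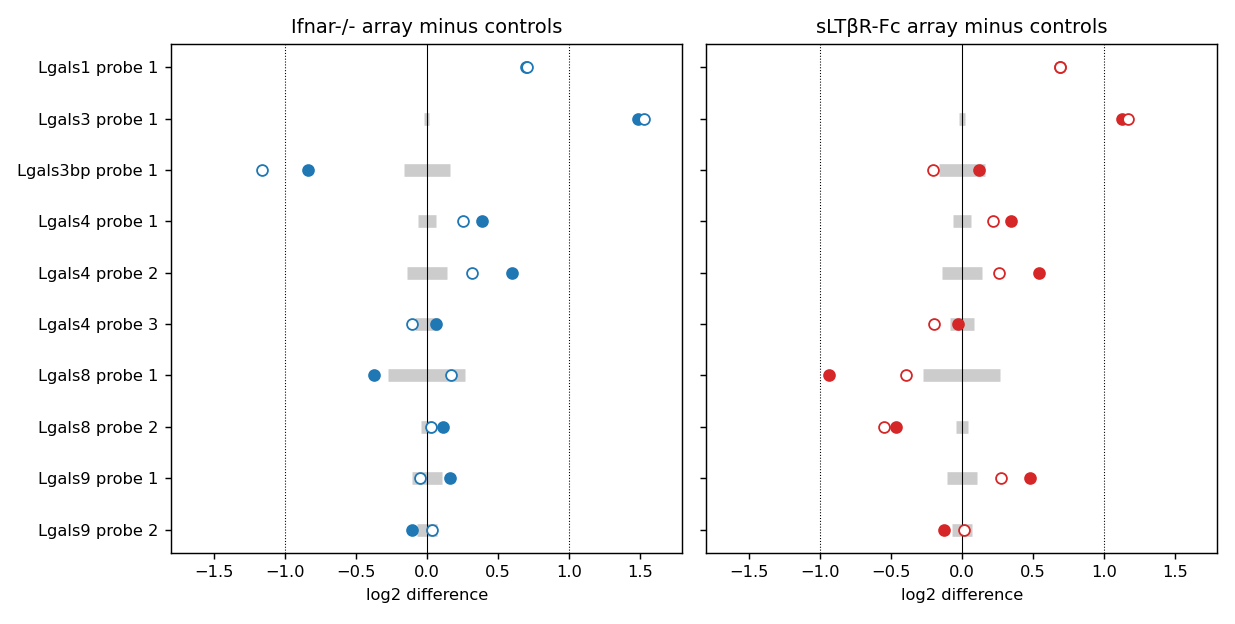
Log2 difference of the Ifnar-/- array (left) and the sLTβR-Fc array (right) from control 1 (filled circles) and control 2 (open circles) for the 10 galectin probes tested, numbered from the brightest of each gene. Grey bars span the gap between the controls, centred on 0, and dotted lines mark a log2 difference of 1 in either direction. Lgals3 lies beyond 1 on both arrays after quantile normalisation, and the 2 Lgals8 probes lie below 0 after sLTβR-Fc.

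Lgals4 encodes galectin-4, best known from the gut epithelium. A pair of its probes gave readings close to each other. The brightest read 252 and 276 in the controls, 329.7 in Ifnar-/- cells and 321 after sLTβR-Fc. The next read 219.6 and 266 in the controls, 332 in Ifnar-/- cells and 319.97 after sLTβR-Fc. Both unreplicated arrays lay above both controls on each.

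The log2 differences of Lgals4 in Ifnar-/- cells were 0.32 ± 0.17 (SE) and 0.46 ± 0.17, positive under all 7 alternatives. After sLTβR-Fc, they were 0.28 ± 0.17 and 0.40 ± 0.17, but -0.30 and -0.17 in the values as deposited and also negative after scaling to the same median. The last Lgals4 probe was above background only on control 2, where it read 118. Its transcript accession is not among those of Lgals4 in the reference table used here. Control 2 alone being above background, no fold is given for it.

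Of the 10 probes tested, 5 lay above both controls in Ifnar-/- cells (41.1% of all probes), 1 below both (36% of all) and 4 between. The same counts after sLTβR-Fc were 5 (39.9%), 3 (39.1%) and 2. Counted over the brightest probe of each gene, 3 of 6 galectin genes lay above both controls in Ifnar-/- cells (43% of all genes), 1 below both (35%) and 2 between them. After sLTβR-Fc, 4 lay above both (43.8% of all genes), 1 below both (35.7%) and 1 between them. The higher count after sLTβR-Fc depends on the scaling, since Lgals1, Lgals4 and Lgals9 turned negative there in the values as deposited. Lgals3 (higher on both arrays), Lgals8 (lower after sLTβR-Fc) and, in Ifnar-/- cells, Lgals1 and Lgals4 (higher) and Lgals3bp (lower) kept their sign under each of the 7 settings. Of these settings, the floor and leaving out a control could not have changed these signs.

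**Figure D3:**
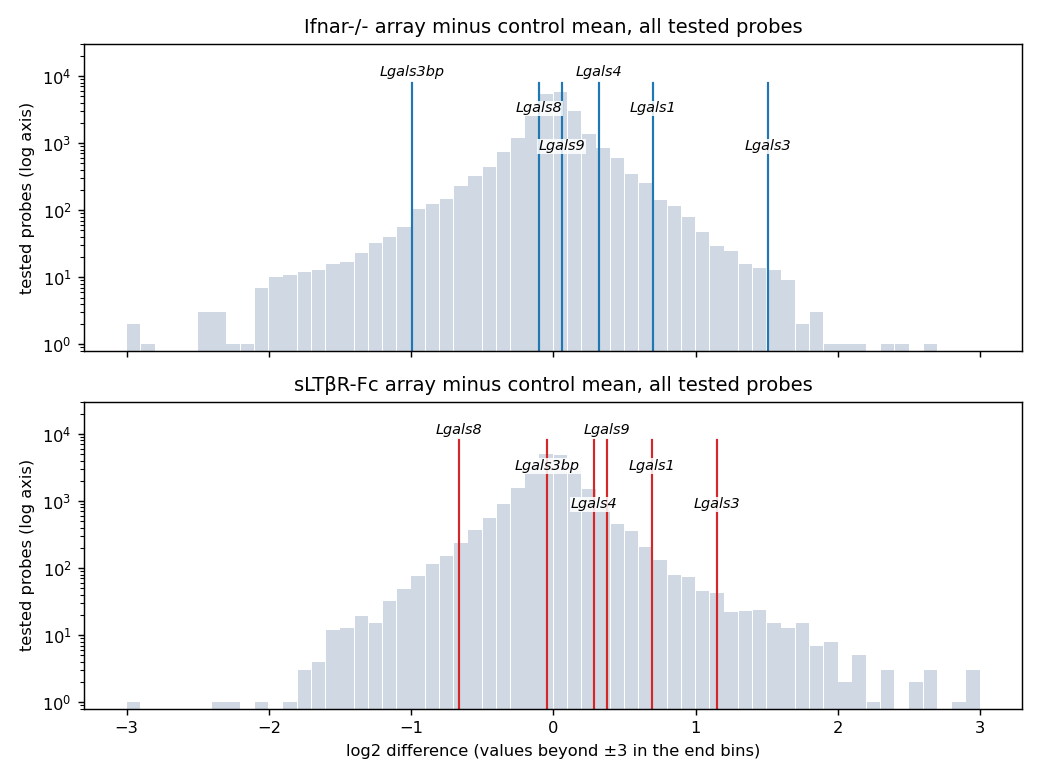
Number of tested probes (log axis) by log2 difference of the Ifnar-/- array (top) and the sLTβR-Fc array (bottom) from the control mean, in bins of 0.1, with vertical lines for the brightest probe of each galectin gene. Lgals3 lies at 1.51 and 1.15, in the sparse upper tail of both distributions, while Lgals9 at 0.058 and Lgals8 at -0.10 lie in the bulk of the Ifnar-/- array.

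**Figure D4:**
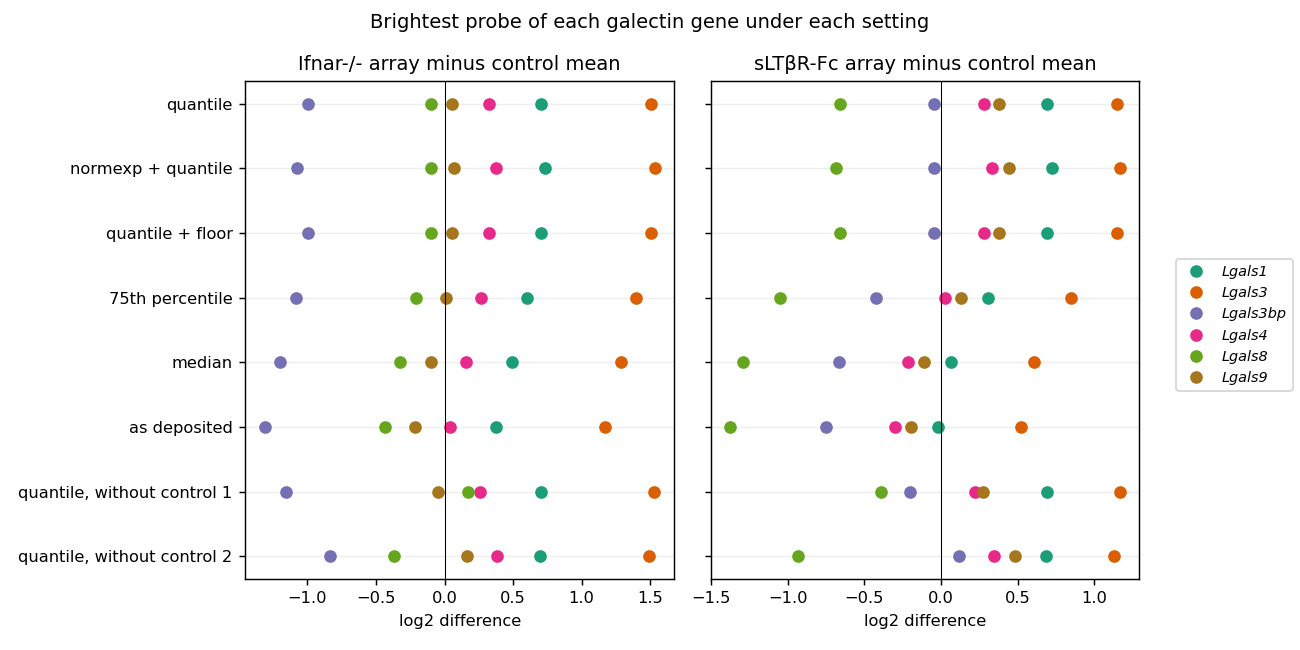
Log2 difference from the control mean for the brightest probe of each galectin gene under 8 settings, from quantile normalisation (top row) to a single control array (bottom rows). In Ifnar-/- cells, Lgals3 stays between 1.17 and 1.53, while after sLTβR-Fc the galectin readings shift down together without scaling and Lgals3 reaches 0.53.

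The 5 genes whose 4-array pattern lay nearest to that of Lgals3 were Ckb, Nav1, Cyp4f16, Osm and Cyba. Likeness was the Euclidean distance over 3 log2 values (control 2 minus control 1, and each unreplicated array minus the control mean) among 10800 genes above background on all 4 arrays. The distances were 0.19 for Ckb, creatine kinase B, 0.25 for Nav1, 0.26 for Cyp4f16, a cytochrome P450, 0.29 for Osm, the cytokine oncostatin M, and 0.35 for Cyba, a subunit of the phagocyte NADPH oxidase. Ckb read 1157 and 1099 in the controls, 3069.9 in Ifnar-/- cells and 2828 after sLTβR-Fc. Osm read 1315 and 1456, 3396 and 3166 in the same order.

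By limma, 1251 probes (5.17%) were higher and 1344 (5.56%) lower in Ifnar-/- cells and 1520 (6.29%) and 1537 (6.36%) after sLTβR-Fc, but 338 and 3524, and 231 and 7597, in the values as deposited. In 4 lists of related genes (glycan synthesis, sialyltransferases, counter-receptors and damaged vesicles), the genes named below passed this test by their brightest probe in at least 1 comparison, none passed the rule of size (0.563% of genes as higher and 0.936% as lower in Ifnar-/- cells, 1% and 0.468% after sLTβR-Fc), and they were chosen after their values were seen. Over all genes, limma called 5.81% higher and 5.99% lower in Ifnar-/- cells, and 7.73% and 5.88% after sLTβR-Fc. Galectins bind N-acetyllactosamine, so genes of its synthesis were listed, and α2,6-linked sialic acid masks it. In Ifnar-/- cells, 0 of 13 tested genes of N-glycan branching and lactosamine synthesis passed limma's adjusted threshold, with a median of 0.038, and 1 of them, C1galt1, had an unadjusted p under 0.05 (23.5% of all genes). After sLTβR-Fc, 1 passed as higher and 1 as lower, at a median of 0.12 (0.018 over all genes). C1galt1, which starts core 1 O-glycans, fell from 1551 and 1486 to 884 (log2 -0.78, limma adjusted p = 0.015), while its further probe lay at -0.14. Mgat5, the branching enzyme that makes the favoured galectin-3 ligand, read 521 and 636 in the controls and 912 after sLTβR-Fc (log2 0.67, limma adjusted p = 0.037), but lay at -0.035 in the values as deposited. It passed under 4 of 10 alternatives, and its 2 further probes had a median of 0.037.

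Among 9 sialyltransferases, 1 passed as higher and 2 as lower in Ifnar-/- cells, and 1 as higher and 3 as lower after sLTβR-Fc, at medians of 0.23 and -0.32. The shares of all genes were 5.81% and 5.99% in Ifnar-/- cells, and 7.73% and 5.88% after sLTβR-Fc. St6gal1, the enzyme that adds α2,6-linked sialic acid to lactosamine, read 6348 and 5738 in the controls, 3868 in Ifnar-/- cells and 3521 after sLTβR-Fc. It fell on both, by 0.64 (limma adjusted p = 0.0069) and 0.78 (limma adjusted p = 0.0009) on the log2 scale. Both values kept their sign under every alternative, and both passed under 9 of 10 tested ones, the exception being the floor on dim values. Only a change of scaling or normexp could have changed these signs. St3gal5, which makes the ganglioside GM3, was lower on both (log2 -0.54 and -0.53, limma adjusted p = 0.026 and 0.025). Each of these calls passed under 7 of 10 alternatives and was lost with the floor, without a variance trend and among probes above background on all 4 arrays, and its further probe lay at -0.022 and -0.42. St8sia4, a polysialyltransferase, was lower after sLTβR-Fc (log2 -0.69, limma adjusted p = 0.019), with -0.44 on its further probe. St3gal3 passed as higher on both (log2 0.55 and 0.57, limma adjusted p = 0.049 and 0.034), but under only 3 of 10 alternatives for Ifnar-/- and 5 of 10 for sLTβR-Fc. As deposited it lay at 0.26 and -0.069, and its further probe lay at 0.10 and 0.019. B cell markers lay at medians of 0.45 (3 of 6 higher by limma) and -0.37 (2 of 6 lower) on these arrays and T cell markers at -0.50 (3 of 7 lower) and -0.68 (4 of 7 lower), and the part of such cells in these values was not tested.

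Of 14 counter-receptor genes, whose products galectins bind, 1 passed as higher and 0 as lower in Ifnar-/- cells, and 3 as higher and 1 as lower after sLTβR-Fc, at medians of -0.0098 and 0.17. Of all genes, 5.81% passed as higher and 5.99% as lower in Ifnar-/- cells, and 7.73% and 5.88% after sLTβR-Fc. Havcr2, which encodes the galectin-9 receptor TIM-3, read 321 and 294 in the controls, 591 in Ifnar-/- cells and 482 after sLTβR-Fc. It rose by 0.94 on the log2 scale in Ifnar-/- cells (limma adjusted p = 0.00056), and its further probe gave 0.84. After sLTβR-Fc, it lay at 0.65 (limma adjusted p = 0.020), with 0.78 on the further probe and -0.0065 in the values as deposited. P4hb, a protein disulfide isomerase that binds galectin-9, read 5189 and 4426 in the controls, 4339 in Ifnar-/- cells and 9094 after sLTβR-Fc (log2 0.92, limma adjusted p = 4.7e-05). Lamp2, a lysosomal membrane glycoprotein, read 2711 and 2678, then 2576 and 4649 (log2 0.79 after sLTβR-Fc, limma adjusted p = 0.0034), but 0.20 as deposited and 0.29 at the same median, where it did not pass, and its 6 further probes had a median of 0.13. Ptprc, which encodes CD45, was lower after sLTβR-Fc (log2 -0.61, limma adjusted p = 0.037), with a median of -0.59 over 3 further probes. It passed under 7 of 10 alternatives and was lost with the floor, without a filter and without a variance trend.

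Of 11 tested genes of the response to damaged vesicles, which galectin-3 and galectin-8 serve, 0 passed limma in Ifnar-/- cells, where 1 had an unadjusted p under 0.05, and 1 passed as higher after sLTβR-Fc, at medians of 0.14 and 0.097. Of all genes, 23.5% had an unadjusted limma p under 0.05 in Ifnar-/- cells, and 7.73% passed as higher after sLTβR-Fc. Sqstm1, the autophagy receptor p62, read 453 and 524 in the controls, 641 in Ifnar-/- cells and 1011 after sLTβR-Fc. Its log2 difference on the latter was 1.05 (limma adjusted p = 0.00055), and 0.35 in the values as deposited, where it did not pass. Of 5 other galectin genes with a probe, 3 were tested. Lgals2 read 115 and 117 in the controls, 111 in Ifnar-/- cells and 107 after sLTβR-Fc. Lgals7 read 125 and 131, 116 and 120.2, and the galectin-related Lgalsl 180.03 and 234, 194 and 235. None of the 3 passed in either comparison, none had an unadjusted p under 0.05 (26.7% of all genes after sLTβR-Fc), and the lowest limma adjusted p among them was 0.42.

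**Figure D5:**
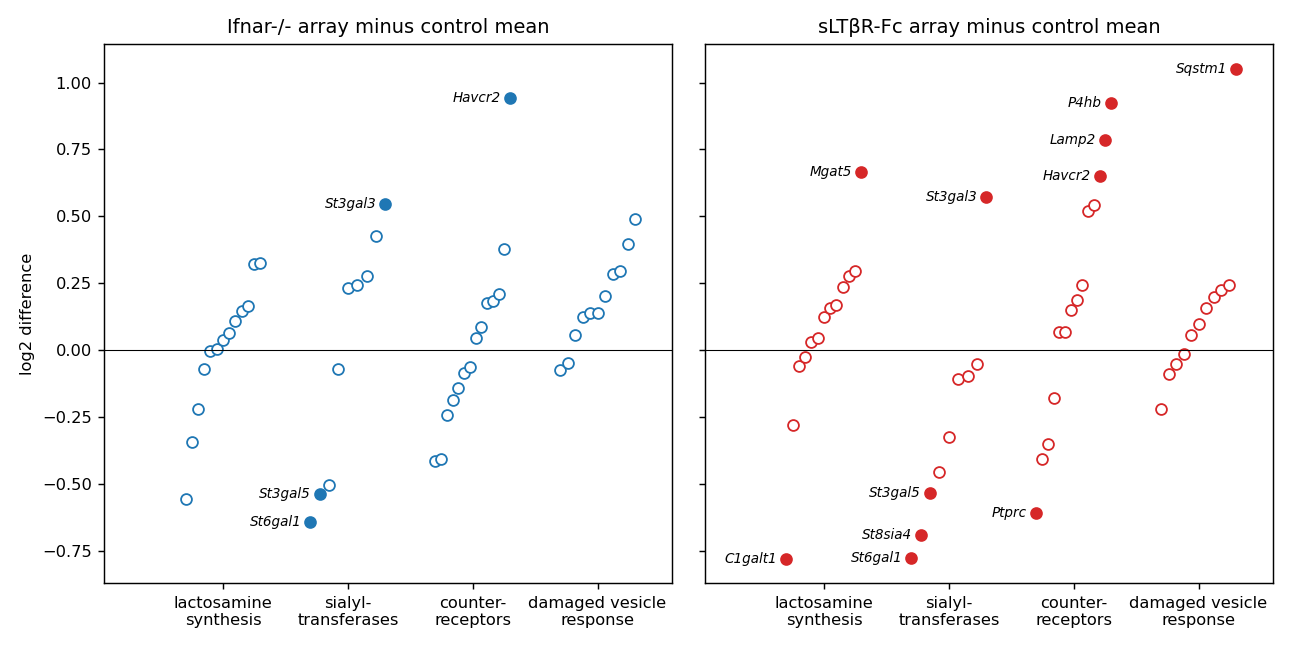
Log2 difference from the control mean, by the brightest probe, for tested genes of 4 lists on the Ifnar-/- array (left) and the sLTβR-Fc array (right), ordered by value within a list. Filled and named points passed limma's adjusted threshold of 0.05. St6gal1 is the lowest sialyltransferase on both arrays, and Havcr2 is the highest counter-receptor gene in Ifnar-/- cells. The values of Mgat5, St3gal3 and Havcr2 after sLTβR-Fc turn slightly negative without scaling.

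Marker lists of several cell types also differed on the arrays on which Lgals3 was high. Beside their counts by limma, 5.81% of all genes were higher and 5.99% lower in Ifnar-/- cells. The same shares after sLTβR-Fc were 7.73% and 5.88%. Dendritic cell markers had a median of 0.80 in Ifnar-/- cells, with 6 of 8 higher by limma and summed levels of 4496 and 4263 in the controls against 6294. Neutrophil markers had a median of -1.09 there, 7 of 10 lower, with sums of 21075 and 12372 against 3733. Erythroid markers had one of -1.14, 6 of 7 lower, with sums of 8468 and 4244 against 2642, and one of -0.54 after sLTβR-Fc, 2 of 7 lower, with a sum of 3665. Cell cycle genes had a median of -0.74 in Ifnar-/- cells, where 5 of 10 were lower by limma and all 10 lay below both controls, and -0.071 after sLTβR-Fc. Of 5 marginal zone macrophage markers tested, 1 was higher in Ifnar-/- cells, Cd209d, a relative of the SIGN-R1 gene, which read 216 and 306 in the controls, 1304 there and 315 after sLTβR-Fc. The medians of those 5 were 0.10 and 0.18. Another of them, Spic, read 168 and 145 in the controls and 122 after sLTβR-Fc (log2 -0.36). On that array 3 of the 5 lay above both controls (43.8% of all genes) and 1, Spic, below both (35.7%). After sLTβR-Fc, eosinophil markers had a median of 2.41, 4 of 6 higher, with sums of 5212 and 5901 against 28056, and mast cell and basophil markers one of 1.24, 6 of 7 higher, with sums of 13442 and 16848 against 37423. Macrophage and monocyte markers had medians of -0.021 and -0.012, with 1 of 10 higher and 3 lower in Ifnar-/- cells and 1 higher and 0 lower after sLTβR-Fc. Their summed level was 12265 and 6810.5 in the controls, 11720.3 in Ifnar-/- cells and 9927 after sLTβR-Fc, and their median differed by -0.50 between the controls, where Lgals3 differed by -0.038. Most of each sum was Lyz2, which read 9814 and 5216, then 9203 and 7397. The markers ranged from -0.60 (C1qb) to 1.21 (Adgre1) in Ifnar-/- cells and from -0.32 (C1qc) to 1.11 (Cd14) after sLTβR-Fc. Stromal and epithelial markers had medians of 0.17 and 0.16, with 2 of 8 higher in Ifnar-/- cells and 3 higher and 1 lower after sLTβR-Fc. Of the defining eosinophil genes, Ccr3 was above background on no array and Siglecf on 2 of the 4. Il5ra was above it on all 4 and read 136 and 133 in the controls, 140 in Ifnar-/- cells and 122 after sLTβR-Fc. On the other array, mast cell and basophil markers had a median of 0.20 in Ifnar-/- cells, with a sum of 11357. There 3 of the 7 lay above both controls (43% of all genes) and 2 below both (35%), Mcpt8 (-1.64) and Prss34 (-1.49). These 2 were past the rule of size as lower, against 0.936% of all genes, and 0 as higher, against 0.563%. Eosinophil markers had a median of -0.069 in Ifnar-/- cells. After sLTβR-Fc, dendritic cell markers had one of -0.0044 and ranged from -0.71 (Ccr7) to 0.84 (Batf3). Of these 8, 3 lay above both controls and 2 below both. Neutrophil markers had one of -0.088 and ranged from -0.27 (Camp) to 1.27 (Csf3r), with 3 of 10 above both controls and 3 below both. Csf3r was past the rule of size, while its 4 further probes had a median of 0.11. Of all genes, 43.8% lay above both controls and 35.7% below both after sLTβR-Fc. The part of these cells in the galectin readings was not tested.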

How the data were processed

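RNA of sorted spleen cells was measured on 4 single-colour Illumina arrays. The deposited values are linear probe intensities from GenomeStudio 2011.1, per the submitters' processing notes. Not given in sources used here is how background was treated and arrays were scaled. Those intensities of the authors were quantile normalised and taken to log2 here, with no floor. A probe was above background past the 95% point of noise mirrored around an array's mode, which left 52.6% to 53.7% of probes per array. A limma 3.58.1 model (R 4.3.3) of 3 group means used the 24175 probes above background on at least 1 array, with a trended variance and Benjamini-Hochberg adjustment at 0.05. Its 1 residual degree of freedom is the control pair, so each unreplicated array is assumed to vary as the controls do. The variance prior pooled across probes held 39.5 degrees of freedom, and 4.15 without a trend. The SEs and p-values therefore rest mostly on the spread of other probes. The labels do not say that the controls came from different mice, so p-values may measure technical spread only. The small number of arrays limits the precision.

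Probes were named by the platform annotation: 34885 have 1 gene symbol, 18 several and 10378 none. A gene in a list is its brightest probe. The members and lists were chosen with earlier results of these data known. By rule, all member probes, the other galectins, genes of the related lists past the rule of size (at most 4 a list) and the 5 genes most like Lgals3 are named. Outside it, genes of the glycan, sialyltransferase, counter-receptor and vesicle lists that passed limma are named. Cell type marker and cell cycle lists are given by medians, counts and sums, and the few of their genes named were chosen after their values were seen. Promoters are from RefSeq, GRCm38.p6; protein sequences were not used here. The model was run on simulated data in which all 4 arrays varied as the controls do. That assumption itself was therefore not tested.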

Additional observations from a re-analysis of the deposited data

How the results depend on the processing

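With the settings changed in turn, Lgals3 was higher than both controls on both unreplicated arrays under all 7 alternatives. The floor and leaving out a control could not have changed this, since Lgals3 was bright and already above both controls. Only the change of scaling and normexp could, and the set was chosen by this direction. Its log2 differences (Ifnar-/-, then sLTβR-Fc) were 1.17 and 0.53 as deposited, 1.28 and 0.61 scaled to the same median and 1.40 and 0.85 scaled to the same 75th percentile. Against a single control they were 1.49 to 1.53 and 1.13 to 1.17. Of all galectin values, those of Lgals3 included, 94 moved by no more than the control spread and 46 by more. Without Lgals3 these numbers were 86 and 40. Probes past the rule of size (higher and lower) numbered 47 and 401 as deposited in Ifnar-/- cells and 38 and 879 after sLTβR-Fc. Scaled to the same median, 67 were higher on the former, and 51 and 604 on the latter. After sLTβR-Fc they were 96 and 251 at the same 75th percentile, and 157 lower with normexp. Leaving out a control gave 153 to 218 and 216 to 358 in Ifnar-/- cells and 237 to 263 and 147 to 230 after sLTβR-Fc. Limma called 338 and 3524, and 231 and 7597, as deposited. At the same median it called 362 higher in Ifnar-/- cells, and 291 and 4057 after sLTβR-Fc, which gave 3725 and 2727 at the same 75th percentile. Without a variance trend it called 635 and 724, and 700 and 590, and with 1 probe per gene, which tests fewer features, 906 were lower after sLTβR-Fc. A floor at the background limit left 2455 probes with no control spread, and limma called 0 in each direction (4595 and 5320 at an unadjusted p under 0.05). After sLTβR-Fc, Mgat5 (-0.035), St3gal3 (-0.069) and Havcr2 (-0.0065) turned negative as deposited. The cause of these shifts was not tested. No paired analysis was possible because the groups compared share fewer than 2 replicate numbers.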
